A study of Mus musculus with 6 samples.

Results

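Forkhead factors are transcription factors that share a winged-helix DNA-binding domain, and several of them shape T cells. Foxp3 is the factor that defines regulatory T (Treg) cells, the T cells that restrain immune responses. Foxp1, of the same subfamily, keeps naive T cells quiescent and can pair with Foxp3. Foxo1 and Foxo3 are active in resting cells; when the antigen receptor or a cytokine switches on the kinase Akt, they are phosphorylated and leave the nucleus. Foxo1 drives genes for lymph node homing and survival in naive T cells and is needed for Treg function in mice. Much of the control of the FOXO proteins is therefore on protein location, which RNA counts do not show.

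The 4 forkhead genes described here, Foxp3, Foxp1, Foxo1 and Foxo3, were taken by name from a table of 14098 genes, which held 12 other forkhead genes. The table came from single splenic Treg cells sorted by their EGFP reporter, with RNA counted at its 3′ end on a droplet platform as unique molecular identifiers (UMIs). Of 6 samples from tamoxifen-treated C57BL/6 mice aged 18 to 21 weeks, 3 were cKO (genotype Bach2fl/fl Foxp3EGFP-Cre-ERT2) and 3 were WT (genotype Bach2+/+ Foxp3EGFP-Cre-ERT2). Bach2, the gene flanked by loxP sites, encodes a transcriptional repressor of lymphocyte activation. Both genotypes thus carry EGFP and an inducible Cre recombinase at Foxp3 itself, so each Foxp3 level below is that of an engineered locus. Where the insert lies relative to the counted 3′ end is not given in the sources used here.

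The table held 25389602 UMIs from 10685 cells, and barcode suffixes divided the cells into 6 sets of 3998172 to 4786590 UMIs. No name tied a set to a sample, so cKO and WT cells were not compared, and each set may hold either genotype. Which part of Bach2 the loxP sites flank is not given in the sources used here, so its 3′ counts do not check the deletion; Bach2 ran from 19.2 to 36.7 counts per 1000000 UMIs (CPM) over the sets. Of the cells with at least 1000 UMIs, 128 carried UMIs of B-cell, myeloid, CD8 T-cell or erythroid markers past set limits and were kept apart. The remaining 10237 cells, with 24760556 UMIs and 1590 to 1844 cells per set, are called Treg cells. They carried Cd3e at 740 CPM and Cd4 at 138 CPM, and the Treg markers Ikzf2 (1015 CPM), Tnfrsf18 (540 CPM), Il2ra (105 CPM) and Ctla4 (98.3 CPM). A total of 63 barcodes occurred in more than 1 set. Cells of 1 library do not stand in for replicates, and no p-value is given; 95% intervals (exact Poisson for levels, exact binomial for ratios and shares) cover counting error only.

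All 4 genes are protein coding in GENCODE M21 (GRCm38, which is mm10, the build named in the submitters' notes). Foxp3 (ENSMUSG00000039521.13) lies on the plus strand of chromosome X at 7573644 to 7595245, Foxo1 (ENSMUSG00000044167.6) on the plus strand of chromosome 3 at 52268336 to 52353221, Foxp1 (ENSMUSG00000030067.17) on the minus strand of chromosome 6 at 98925338 to 99522721, and Foxo3 (ENSMUSG00000048756.11) on the minus strand of chromosome 10 at 42181841 to 42276755. The last 1437 bases of Foxp3 overlap Ccdc22 on the opposite strand, which was counted at 12.2 CPM. Foxp1 shares 265238 bases with Gm20696, a gene model on the same strand counted at 17.9 CPM. Whether the counting used strand is not given in the sources used here, so UMIs from the shared stretches cannot be told apart between partners.

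RefSeq start-site windows (GRCm38.p6, 250 bases before to 50 after a start site) were found for all 4 genes, 7 windows in all. They were searched on both strands for the forkhead core TAAACA and for the longer FOXO-type element GTAAACA, which contains that core. TAAACA stood in 4 of the 7 windows (1 of 2 for Foxp3 and 3 of 3 for Foxp1) and in 13.4% of all 32851 such windows. GTAAACA stood in 0 of the 7 and in 3.65% of all. A match is only a match of letters. The Foxp3 window with the core and the Foxp1 window that holds it at 2 places are shown, picked for these matches. The Foxp1 window nearest the gene's 5′ end, at 99520944 to 99521243, held 1 core and is not shown. Capitals mark TAAACA or its reverse complement.
Foxp3, chrX:7579426-7579725, plus strand: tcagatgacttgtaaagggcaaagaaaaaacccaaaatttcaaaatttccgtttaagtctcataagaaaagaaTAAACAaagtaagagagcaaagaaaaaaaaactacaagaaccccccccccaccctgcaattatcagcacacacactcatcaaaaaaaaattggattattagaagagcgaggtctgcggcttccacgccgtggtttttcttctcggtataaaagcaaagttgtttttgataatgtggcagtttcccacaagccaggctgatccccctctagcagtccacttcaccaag
Foxp1, chr6:99266466-99266765, minus strand: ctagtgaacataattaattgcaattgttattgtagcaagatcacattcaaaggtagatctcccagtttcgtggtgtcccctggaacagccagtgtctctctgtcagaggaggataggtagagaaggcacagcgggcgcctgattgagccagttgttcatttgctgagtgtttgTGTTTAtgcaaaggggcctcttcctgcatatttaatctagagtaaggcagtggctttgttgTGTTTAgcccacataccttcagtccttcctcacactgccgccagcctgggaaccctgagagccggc

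Over all Treg cells the highest set exceeded the lowest 1.14-fold for Foxp3 and 1.16-fold for Foxo1. For Foxp1 it was 1.27-fold and for Foxo3 1.59-fold. Foxp1 stood at 172 CPM (interval 167 to 177, from 4258 UMIs), and 30.5% of cells had at least 1 of its UMIs. Across sets 1 to 6 it was at 177, 184, 178, 165, 145 and 181 CPM. Set 5 was the lowest, and its interval (134 to 158 CPM) overlapped only that of set 4 (153 to 178). Foxo1 stood at 79.6 CPM (76.1 to 83.2), with sets between 74.0 and 85.6 CPM and a median of 79.9. Foxp3 stood at 21.4 CPM (19.7 to 23.3, 531 UMIs) and gave a narrow range of 20.0 to 22.9 CPM over sets, with a median of 21.6. Foxo3 stood at 9.61 CPM (8.43 to 10.9, 238 UMIs) and ranged from 7.29 to 11.6 CPM, with a median of 9.64. Since tags were counted at the 3′ end, levels are compared between cells for 1 gene and not between genes.

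**Figure D1:**
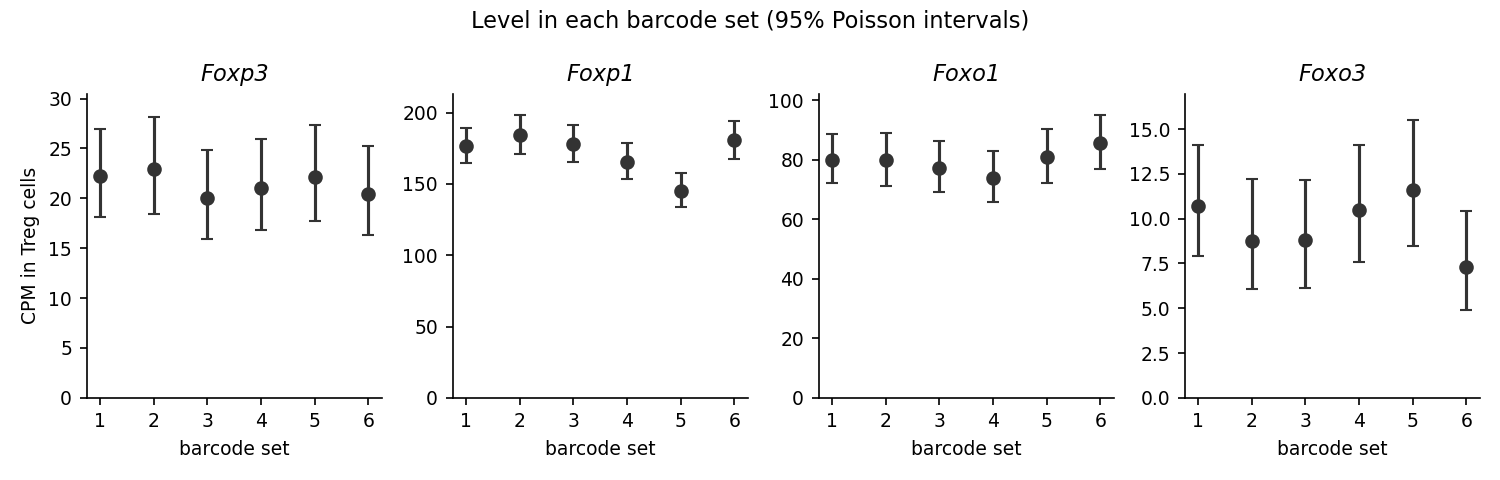
Level of Foxp3, Foxp1, Foxo1 and Foxo3 in Treg cells of each of the 6 barcode sets, in CPM, with exact 95% Poisson intervals as bars. The sets carry no sample name; Foxp1 was lowest in set 5 (145 CPM), while Foxp3 stayed between 20.0 and 22.9 CPM.

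The share of cells with a UMI was low for Foxp3, although every cell had been sorted on the reporter at that locus. At a fixed 1000 UMIs per cell, a Foxp3 UMI was found in 2.26% of Treg cells (1.98 to 2.56%), against 1 of 128 cells in the gates for other cell types, 0.781% (0.020 to 4.28%). Without thinning, it was 4.99% of Treg cells (median 2128 UMIs per cell) and 1.56% of gated cells (median 2049). The interval of the gated cells spans the Treg value at this fixed depth. From all UMIs, the Foxp3 level was 21.4 CPM (19.66 to 23.3) in Treg cells and 5.44 CPM (0.659 to 19.65) in gated cells, the last from 2 UMIs. By the same measure UMIs of Ikzf2, the gene of Helios, were found in 59.1% of Treg and 23.4% of gated cells. The gated cells were not alike. Ikzf2 UMIs were in 15.1% (8.30 to 24.5%) of the B-cell gate and 45.7% (28.8 to 63.4%) of the 35 cells of the myeloid gate. Foxp1, which B cells also express, had a UMI in 14.8% of Treg cells and in 18.8% (12.4 to 26.6%) of the gated cells. In the 86 cells of the B-cell gate Foxp1 stood at 371 CPM (290 to 468). Foxo1 shares were 7.47% and 7.81%, and Foxo3 shares 0.908% and 1.56%, in Treg and gated cells in that order.

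Treg cells were then placed on an axis from resting to activated by a score, the mean level of 35 markers of activation less the mean level of 10 markers of rest, at 1000 UMIs per cell. None of the 4 genes is a marker of the score. Tertiles were taken within each set, and a tertile is a stretch of the axis, not a kind of cell. Foxp1 was lower in the activated cells. In the upper tertile Foxp1 stood at 126, 125, 144, 135, 100.2 and 131 CPM in sets 1 to 6, and in the lower tertile at 209.7, 219, 199, 206, 181 and 213 CPM. The 2 tertiles did not overlap, as every upper value lay under every lower one. How many of all genes were separated in this way was not counted. By another measure, 21.2% of genes with enough UMIs lay on the same side of the median gene in 6 of 6 sets. Pooled, Foxp1 was at 127 CPM (997 UMIs) in the upper and 205 CPM (1780 UMIs) in the lower tertile, a log2 ratio of -0.69 (-0.80 to -0.57), or 1.61-fold lower. The middle tertile lay between them at 180 CPM.

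The median gene had a log2 ratio of 0.18, so a gene was called when it lay at least 1.5-fold from the median gene and on the same side of it in 6 of 6 sets. Genes needed at least 200 UMIs over both tertiles, and 6373 genes outside the score qualified. Foxp1 was called lower, at -0.86 relative to the median gene, where 1.98% of these genes were called lower and 3.2% higher, 5.18% in all. By the plain ratio, which also called Foxp1, the shares were 0.926% lower and 6.28% higher. Foxp1 was the 46th lowest of the 6373 genes. With the score built from the activated markers alone the Foxp1 log2 ratio was -0.71. With the resting markers alone it was -0.28 and was not called. Gm20696, which shares sequence with Foxp1, was also called lower (13.5 CPM in the upper and 22.0 CPM in the lower tertile, log2 ratio -0.70), so its UMIs moved with those of Foxp1.

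Foxo1 moved less. In the upper tertile Foxo1 was at 79.3, 80.3, 66.2, 77.8, 70.7 and 79.1 CPM in sets 1 to 6, and in the lower tertile at 82.4, 84.0, 91.9, 76.1, 81.5 and 88.2 CPM. The tertiles overlapped, and the upper was below the lower in 5 of 6 sets. Its pooled log2 ratio was -0.15 (-0.31 to 0.01), and -0.33 relative to the median gene, short of a call. It lay below the median gene in 6 of 6 sets, and 21.2% of all genes lay on 1 side of it in every set. Foxp3 showed no difference larger than its counting error, at 25.0, 20.1, 18.3, 21.3, 19.1 and 19.6 CPM in the upper tertile against 16.7, 23.9, 20.8, 22.7, 17.9 and 20.0 CPM in the lower. It was higher in the upper tertile in 2 of 6 sets, with a log2 ratio of 0.03 (-0.29 to 0.35). A change within that interval was not detectable at this depth. Foxo3 had 71 UMIs in the upper and 77 in the lower tertile, too few for a call, at 9.05 and 8.85 CPM in that order.

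**Figure D2:**
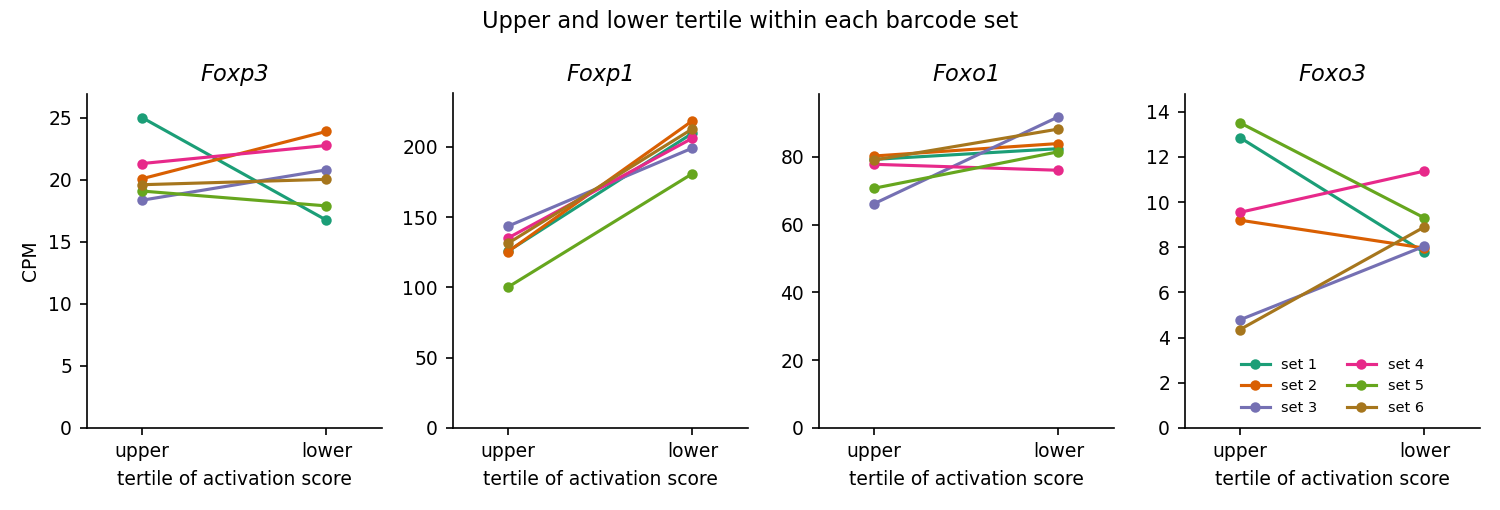
Level of each gene in the upper and the lower tertile of the activation score, in CPM; points are the 6 barcode sets. Foxp1 was lower in the upper tertile in 6 of 6 sets (127 against 205 CPM pooled), while Foxp3 points of both tertiles overlapped.

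Cells were also ranked by the score within each set and cut into 10 steps of near-equal cell number. From resting to activated, Foxp1 stood at 236, 197, 180, 196, 192, 175, 151, 144, 130 and 105 CPM. The level was highest in the first step, roughly flat from the second to the fifth and lower at each step after that. Foxo1 was at 91.4 and 90.0 CPM in the first steps and between 71.3 and 80.2 CPM in the other 8. Foxp3 lay between 18.0 and 26.4 CPM and Foxo3 between 7.98 and 14.0 CPM, with no step whose interval stood clear of all others. Median UMIs per cell fell along the same axis, at 2389, 2127 and 1912 in the lower, middle and upper tertile. The share of cells with a Foxp1 UMI at a fixed 1000 UMIs was 17.4%, 15.3% and 11.5% in the lower, middle and upper tertile. With levels taken from thinned UMIs the Foxp1 log2 ratio was -0.65.

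**Figure D3:**
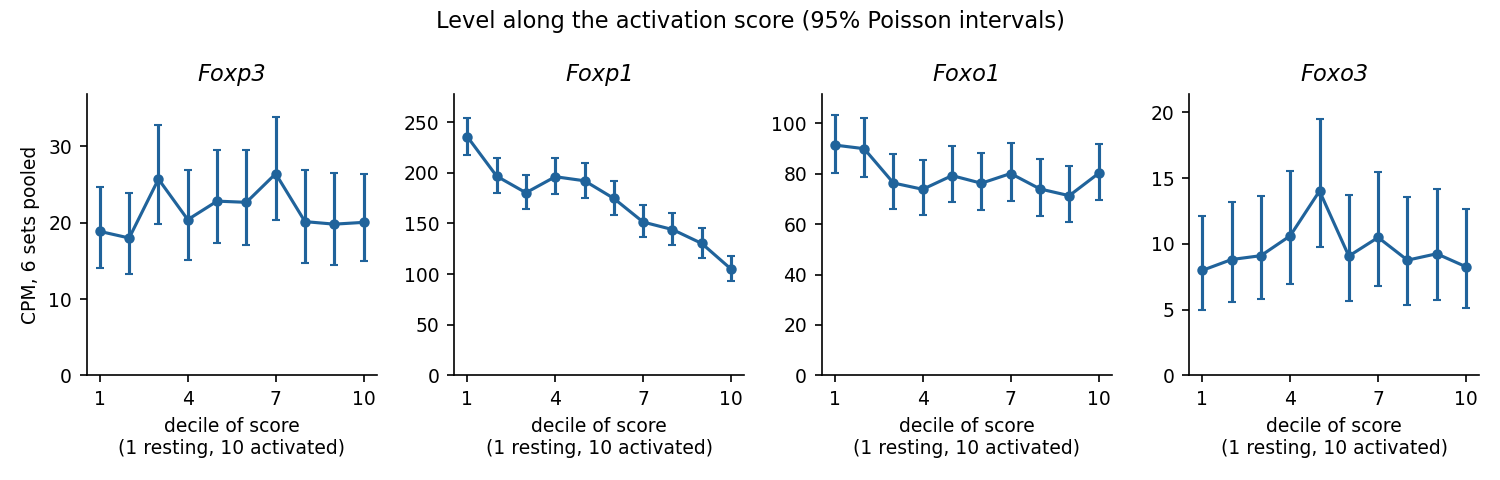
Level of each gene in 10 steps of the activation score, in CPM with exact 95% Poisson intervals. Steps hold near-equal numbers of cells ranked within each set (1 the most resting, 10 the most activated). Foxp1 ran from 236 CPM in step 1 to 105 CPM in step 10, and the other 3 genes had smaller ranges.

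Markers of other cell types were also measured on this axis. The 8 myeloid markers summed to 183 CPM in the upper tertile (157 to 239 over sets) and 128 CPM in the lower (113 to 161), higher in 6 of 6 sets, and 3 of the 8 genes were higher. The 8 B-cell markers summed to 64.5 and 52.9 CPM in the upper and lower tertile, higher in 4 of 6 sets. The CD8 T-cell markers were at 15.5 and 15.3 CPM and the erythroid markers at 66.3 and 67.2 CPM. Among these markers 1 myeloid and 1 CD8 gene were at 0 in the lower tertile and 0 genes in the upper. With every cell that held any Hbb-bs, Cd8a, Lyz2 or Cd79a UMI left out, and the deepest 2% of cells too, the Foxp1 log2 ratio was -0.71.

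Treg cells were next grouped by the marker list in which they scored highest, with the markers again excluding the 4 genes. The resting list was the one used in the score, and the S100a4, Ccl5 and antigen receptor lists shared markers with the score. Of resting cells 93.5% lay in the lower tertile. Ratios of those groups over resting cells thus repeat much of the tertile comparison and are not separate from it. Foxp1 differed between these groups. It was at 126 CPM (114 to 139) in S100a4 effector cells (1470 cells; S100a4, Ccr2, Lgals1), 138 CPM (126 to 151) in the Ccl5 group (1613 cells; Ccl5, Maf, Il10) and 150 CPM (137 to 163) in cells with early genes of antigen receptor (TCR) stimulation (1379 cells; Nr4a1, Egr2, Tnfrsf9). It was at 194 CPM (180 to 208) in the Lrrc32 group (1511 cells; Lrrc32, Gpr83) and 189 CPM in the 1914 unassigned cells, which scored under the limit in every list. In the resting group it was at 209 CPM (197 to 222; 2077 cells; Igfbp4, Ly6c1, Satb1). Over sets it ran from 120 to 140 CPM in S100a4 effector cells and from 190 to 237 CPM in resting cells.

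Against resting cells, Foxp1 was called lower in 4 of the 7 other groups. Its log2 ratio was -0.73 (-0.90 to -0.57) in S100a4 effector cells, where 3.05% of genes were called lower. In the Ccl5 group it was -0.60 (-0.76 to -0.45), with 1.83% of genes called lower. In TCR-stimulated cells it was -0.48 (-0.63 to -0.33), with 4.16% called lower; that call was lost in 2 of 14 alternatives, among them leaving out set 4 (-0.39). In the 54 cycling cells, identified by genes such as Mki67 and Top2a, it was -1.07 (-1.52 to -0.65) from 48 UMIs, where 9.18% of genes were called lower and the median depth was 8021 UMIs per cell. It was -0.11 (-0.25 to 0.03) in the Lrrc32 group, -0.14 (-0.27 to -0.01) in the unassigned cells and -0.15 (-0.50 to 0.19) in the 177 cells with interferon-response genes. None of these 3 was called, where 0.492%, 0.417% and 0.503% of genes were called lower, in that order. Median UMIs per cell were 1942, 1839, 2050 and 2255 in the S100a4, Ccl5, TCR-stimulated and Lrrc32 groups and 2419 in resting cells.

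Groups other than resting cells also differed among themselves in Foxp1. Of the Lrrc32 cells 21.2% lay in the upper tertile of the score, 42.0% in the middle and 36.7% in the lower, while 79.7% of S100a4 effector cells lay in the upper. The log2 ratio of the Lrrc32 group over S100a4 effector cells was 0.62 (0.44 to 0.80), over the Ccl5 group 0.49 (0.32 to 0.66) and over TCR-stimulated cells 0.37 (0.21 to 0.54), with the same sign in 6 of 6 sets each time. S100a4 effector over TCR-stimulated cells gave -0.25 (-0.44 to -0.06), negative in 5 of 6 sets. These pairs were chosen after their values were seen. In the order of the 8 groups, from resting at the top to cycling at the bottom, no neighbouring pair had a ratio whose interval left out 0. In 35 cells with follicular helper markers, too few for a ratio, Foxp1 was at 306 CPM (200 to 448) from 26 UMIs in 13 cells. Cells of the B-cell gate stood at 371 CPM (290 to 468). Whether the 35 cells, which held 0 Foxp3 UMIs, were Treg cells was not tested.

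Foxo1 gave another order, in which no neighbouring pair of groups had a ratio whose interval left out 0. It was at 87.2 CPM (77.4 to 98.0) in S100a4 effector cells, 67.0 CPM (58.6 to 76.3) in TCR-stimulated cells and 89.1 CPM (81.2 to 97.5) in resting cells. Against resting cells the log2 ratio was -0.03 (-0.25 to 0.18) in S100a4 effector cells, the group where the Foxp1 log2 ratio was -0.73. With 5 other random draws of the thinning, Foxo1 there ran from -0.25 (-0.46 to -0.03) to -0.0005 and Foxp1 from -0.92 to -0.74. In TCR-stimulated cells the Foxo1 log2 ratio was -0.41 (-0.65 to -0.18). There Foxo1 was called lower at -0.59 relative to the median gene, against the background of 4.16% given above. This call sat at the edge of the size limit and was lost in 6 of 14 alternatives, among them leaving out set 1 (-0.38) or set 3 (-0.33). It was also lost with 2 other random draws of the thinning. S100a4 effector over TCR-stimulated cells gave a Foxo1 log2 ratio of 0.38 (0.12 to 0.64), positive in 6 of 6 sets, a pair also chosen after its values were seen. In the Ccl5 and Lrrc32 groups Foxo1 was at 73.9 and 74.9 CPM, with log2 ratios of -0.27 and -0.25 and no call.

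**Figure D4:**
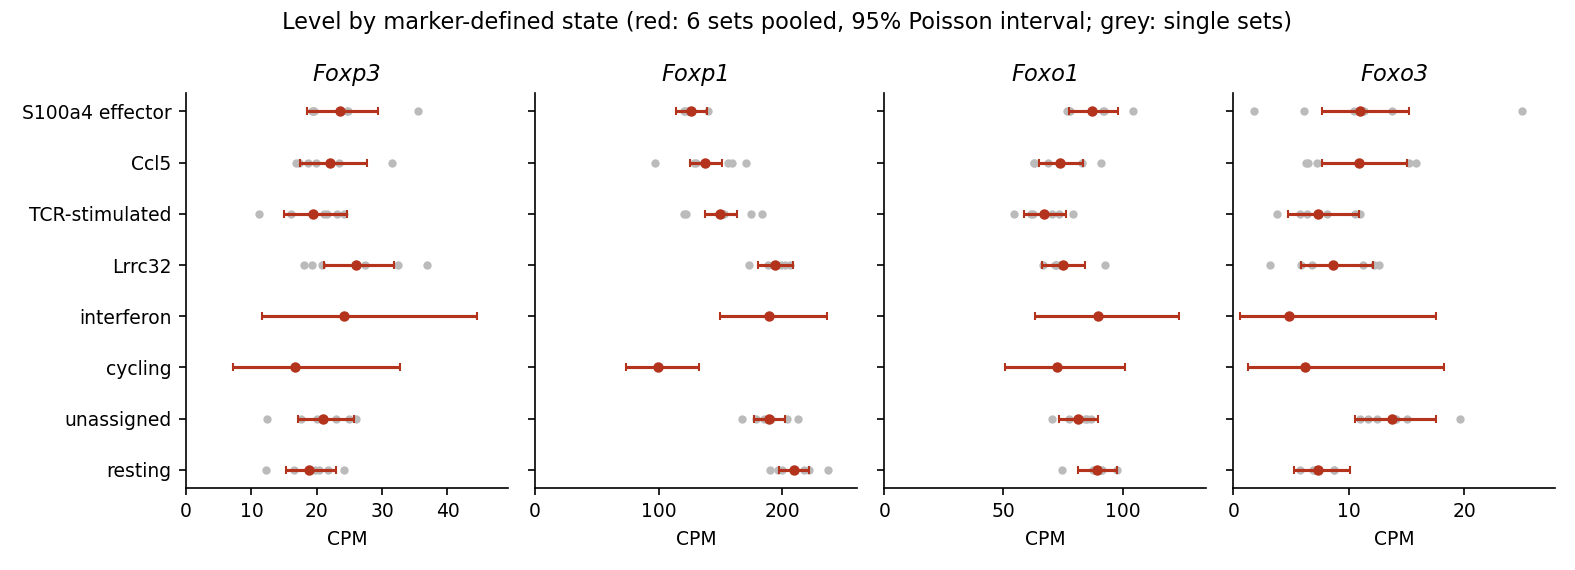
Level of each gene by group of Treg cells, in CPM with exact 95% Poisson intervals; grey points are barcode sets, left out for the small interferon and cycling groups. Foxp1 was lowest among the 5 large marker groups in S100a4 effector cells (126 CPM) and Foxo1 in TCR-stimulated cells (67.0 CPM).

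The Foxp3 intervals of the groups overlapped. It was at 26.0 CPM (21.1 to 31.8) in the Lrrc32 group, 23.5 CPM (18.5 to 29.4) in S100a4 effector cells, 22.1 CPM (17.4 to 27.7) in the Ccl5 group, 19.4 CPM (15.0 to 24.7) in TCR-stimulated cells and 18.9 CPM (15.4 to 23.0) in resting cells. The Lrrc32 group over resting cells gave a log2 ratio of 0.46 (0.05 to 0.88) from 97 and 100 UMIs, too few for a call, and lay above the median gene in 3 of 6 sets. With 5 other random draws of the thinning this ratio was 0.56 to 0.77, each with an interval above 0 and with 0 sets below resting cells, and without set 1 it was 0.19 (-0.28 to 0.66). In the 35 follicular-like cells Foxp3 had 0 UMIs, with an interval of 0 to 43.4 CPM. In Treg cells with a Foxp3 UMI at fixed depth, 14.3% of 231 cells (10.0 to 19.5%) had a Foxp1 UMI, and in those without one 14.8% of 10006 cells (14.1 to 15.5%). Foxo1 UMIs were found in 8.23% (5.02 to 12.5%) and 7.46% (6.95 to 7.99%) of the same cells. Foxo3 was between 4.85 and 13.7 CPM in the 8 groups. The lowest values, 4.85 CPM in the interferon group and 6.23 CPM in cycling cells, came from 2 and 3 UMIs. Among the larger groups the lowest was 7.35 CPM, in TCR-stimulated cells. The Foxo3 value in the unassigned cells (13.7 CPM, log2 ratio over resting cells 0.90) varied with the random thinning. Log2 ratios from 5 other draws were -0.0041, 0.14, 0.39, 0.39 and 0.57.

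Of the 12 other forkhead genes, 6 had at least 200 UMIs over both tertiles, and 0 of these 6 were called, where 5.18% of all genes were. Foxn3, which encodes a transcriptional repressor, came nearest, at 69.8 CPM in the upper and 92.2 CPM in the lower tertile. Its log2 ratio was -0.40 (-0.56 to -0.24), lower in 6 of 6 sets. Relative to the median gene Foxn3 was at -0.58, below it in 6 of 6 sets and just short of the 1.5-fold limit. It was the 147th lowest of the 6373 genes. Foxp4, of the same subfamily as Foxp3 and Foxp1, went the other way, at 32.4 and 24.4 CPM in the upper and lower tertile. Its log2 ratio was 0.41 (0.14 to 0.68), higher in 5 of 6 sets. Relative to the median gene Foxp4 was at 0.23, above it in 4 of 6 sets. Foxj2, Foxj3, Foxk1 and Foxn2 had log2 ratios between -0.05 and 0.29. Foxm1, which drives genes of cell division, had 14 UMIs in the upper and 3 in the lower tertile.

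Genes reported as FOXO1 targets or as linked to FOXO1, mostly in T cells, were counted over the same tertiles. Of 17 with enough UMIs, 5 were called lower and 2 higher, with a median of -0.20 relative to the median gene, against 1.98% lower, 3.2% higher and a median of 0 over all genes. Among the lower ones were the lymph node homing gene Ccr7 (71.1 CPM in the upper and 206 CPM in the lower tertile, -1.71 relative to the median gene), the PI3K inhibitor gene Pik3ip1 (-0.98), the receptor gene Il6ra (-0.83) and the transcription factor gene Tcf7 (-0.75; not called by the plain ratio, which called 4). The higher ones were Trib1 (0.86), which encodes a pseudokinase, and the interleukin-7 receptor gene Il7r (218 and 122 CPM, 0.66). Klf2, the gene of a factor that drives S1pr1, was at 566 CPM in the upper and 577 CPM in the lower tertile, and S1pr1, the receptor for exit from lymphoid organs, at 126 and 149 CPM; neither was called. Several of these targets are common markers of resting T cells, but none was a marker of the score.

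Start-site windows were found for 16 of the 20 listed targets, 19 windows. TAAACA stood in 6 (31.6%) and GTAAACA in 3 (15.8%) of them, beside 13.4% and 3.65% of all such windows. Listed targets without a window included Ccr7, Trib1 and S1pr1. The stretches around the 3 GTAAACA matches are shown, with the element or its reverse complement in capitals; Tcf7 was called lower, Sesn1 (a stress-response gene, -0.52 relative to the median gene) was not called, and Bcl2l11, which encodes the death factor Bim, had too few UMIs.
Tcf7, chr11:52282568-52282614, minus strand: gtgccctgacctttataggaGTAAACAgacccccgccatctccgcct
Bcl2l11, chr2:128125791-128125837, plus strand: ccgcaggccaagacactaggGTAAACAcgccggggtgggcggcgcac
Sesn1, chr10:41810576-41810622, plus strand: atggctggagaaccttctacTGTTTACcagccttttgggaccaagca

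Upstream of the FOXO proteins, 18 genes of the PI3K and Akt pathway and of FOXO handling had enough UMIs; 1 was called lower, Pik3ip1, and 0 higher, with a median of -0.04, beside 5.18% of all genes called either way. Akt1, the kinase gene, was at 20.8 CPM in the upper and 13.7 CPM in the lower tertile (0.43 relative to the median gene) and was not called. Sgk1, whose kinase also phosphorylates FOXO proteins, was at 17.7 and 6.09 CPM in the upper and lower tertile, with 192 UMIs in all, under the limit for a call.

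Partners of the Foxp3 protein were counted in the same way. Of 27 genes for proteins known to bind Foxp3 or act on it, 3 were called higher, 1 lower and 23 not called, with a median of -0.00, where 3.2% of all genes were called higher and 1.98% lower. Those higher were Gata3 (191 CPM in the upper and 85.3 CPM in the lower tertile, 0.98), Runx3 (32.6 and 17.5 CPM, 0.72) and Ikzf2 (1297 and 732 CPM, 0.65), all transcription factor genes, and Tcf7 was lower. The plain ratio called 3 higher and 0 lower. Runx1, Cbfb and Nfatc1 were at 0.17, 0.10 and 0.27. Of 14 genes that Foxp3 binds or that depend on it, 4 were called higher and 1 lower, with a median of 0.19, beside the same 3.2% and 1.98% of all genes. Another 4 that were markers of the score (Capg, Icos, Satb1 and Tigit) had been left out. The higher ones were the inhibitory receptor gene Lag3 (1.31), the co-receptor gene Nrp1 (0.76), the receptor gene Tnfrsf18 (0.66) and Il7r (0.66), a gene that Foxp3 is known to repress. The gene for the interleukin-2 receptor chain CD25, Il2ra, was lower (78.1 and 125 CPM in the upper and lower tertile, -0.86). Nt5e (0.45) passed the size limit only by the plain ratio.

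**Figure D5:**
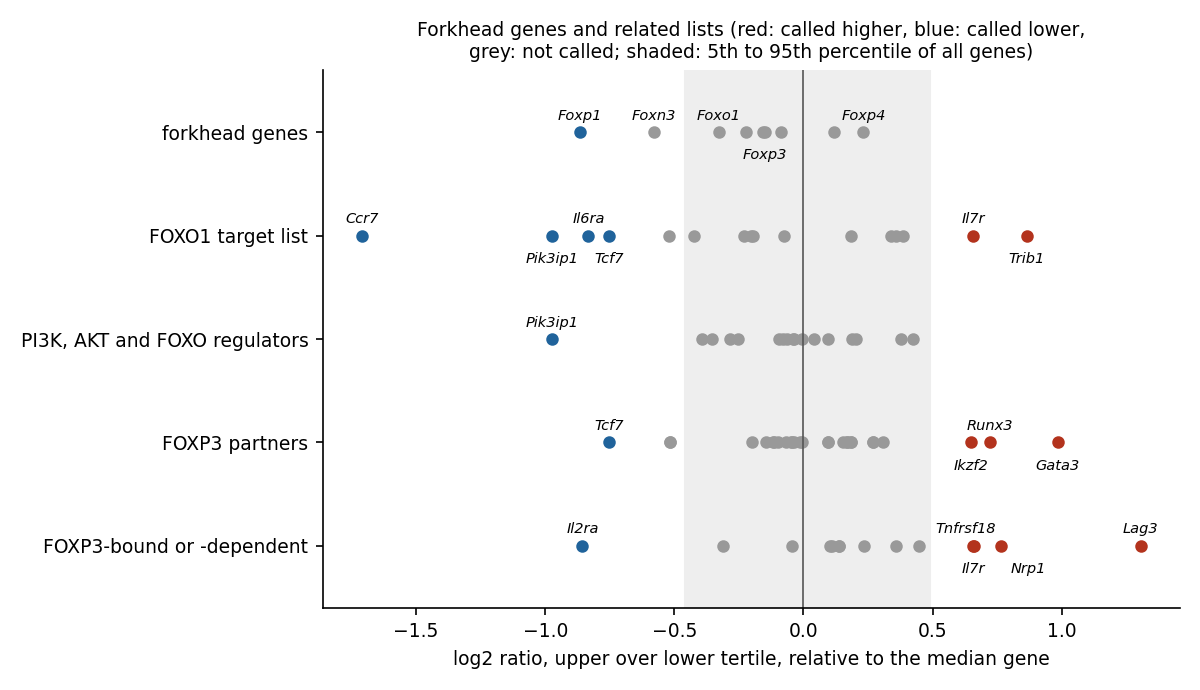
Upper over lower tertile as a log2 ratio, relative to the median gene, for genes of each list with at least 200 UMIs; red and blue points were called higher and lower, and the shaded band spans the 5th to 95th percentile of all genes. Among FOXO1 targets Ccr7 (-1.71) lies lowest, and among genes bound by or dependent on Foxp3 the highest is Lag3 (1.31).

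The genes whose pattern was most like each of the 4 were sought over 30 points, the 5 large marker groups in each of 6 sets, by Pearson's r of log2(CPM + 1), among genes with at least 2000 UMIs. These points share libraries, depth and the marker groups, and the coefficients are descriptions. For Foxp1 they were Bcl2, the survival gene (0.83), and the ribosomal protein genes Rpl34 (0.81) and Rps27a (0.80). For Foxo1 they were Ms4a4b (0.67), Thy1 (0.67) and Klf2 (0.65). For Foxp3 and Foxo3, with 415 and 169 UMIs over these points, no gene reached 0.6 (highest 0.43 and 0.52). Between Foxp1 and Foxo1 the coefficient was 0.01.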

How the data were processed

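The deposited counts are raw UMI counts per gene and cell, per the file headers and values, in 1 table of all samples; its columns are cell barcodes with a suffix from 1 to 6 and no sample name. A second table of the authors held natural log values of 10464 of the cells, which for the 4 genes equalled ln(1 + 10000 × count / cell total) within 1e-09; it served only as a choice of cells. The submitters' processing notes name mm10 and, with no versions or steps, Cell Ranger, Seurat, HISAT2, cutadapt and FastQC. Libraries of sorted CD4 T cells were made with Chromium 3′ v2 reagents, per the labels.

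The members and lists were chosen with earlier results of these data known. Cells with fewer than 1000 UMIs (320) were left out. Each other cell was thinned to 1000 UMIs (seed 1) to set gates, score and groups. Gates for other cell types were 3 B-cell, 3 myeloid, 2 CD8 or 50 erythroid UMIs; gates for cycling, interferon, Th17-like and follicular-like cells were 3, 4, 3 and 2 UMIs. The other cells went to the list with the highest z score, if at least 0.5. Levels and ratios came from unthinned UMIs summed over cells; 0.5 UMIs were added for the ratio of a single set. Groups of under 50 cells gave no ratio. No doublet caller was run. Cells could not be tied to samples, so the planned comparison of cKO with WT, with edgeR, was not made, and p-values were not computed. Named genes were the 4 members, other forkhead genes with at least 200 UMIs, the called genes of each list (up to 4 each way) and the 3 genes most alike at r of at least 0.6; others named (Klf2, S1pr1, Sesn1, Bcl2l11, Akt1, Sgk1, Runx1, Cbfb, Nfatc1, Nt5e, Foxm1, Tcf7 among the targets) were chosen after values were seen, as were the motifs. Of the list genes, 2 are counted but not reported here. On simulated counts of 6351 genes for the tertile comparison, 98% of genes raised 2-fold and 40.8% of those raised 1.5-fold were called. For genes lowered by the same folds the shares were 96% and 48%, and 1 of 6152 unchanged genes was called. The simulated counts held counting error only, with no other variation between cells or sets. These shares therefore do not give the rate of false calls in the real counts. Alternatives covered the thinning, the score, the cells, the totals, the sets and the limits. Python 3.11.15, numpy 2.4.6, scipy 1.17.1, pandas 2.3.3 and matplotlib 3.10.9 were used.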

Additional observations from a re-analysis of the deposited data

Results flagged for a closer look

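In 40 groups of 6 barcode sets, 3 had a single set whose gap to the nearest other set, divided by the whole range, was above Dixon's 95% critical value for 6 values; chance gives about 1 in 20 such groups, and the sets carry no sample name. Foxp3 in S100a4 effector cells was at 35.4 CPM in set 1, against 19.2 to 24.8 CPM in the other sets. Foxp1 in S100a4 effector cells was at 140 CPM in set 6, against 120 to 127 CPM in the other sets. Foxo1 in the Lrrc32 group was at 92.7 CPM in set 6, against 66.7 to 73.8 CPM in the other sets.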

How the results depend on the processing

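Over all alternatives, 467 of 481 recomputed ratios lay within the counting interval of the reported one. The alternatives reused most of the same cells and UMIs, and many intervals were wide. This count is therefore not a measure of how the ratios would hold in other data. Foxp1 was called lower between tertiles in 23 of 24 alternatives. Its log2 ratio was -0.86 with the score from unthinned counts, -0.81 between quartiles, -0.85 with totals without ribosomal protein and mitochondrial genes, and -0.28, with no call, with the resting markers alone, an alternative added after seeing the data. Leaving out each set in turn gave -0.73 to -0.66. The Foxo1 ratio was -0.32 with totals without those genes and -0.34 from thinned UMIs, and was called in 0 of 24 alternatives; the Foxp3 and Foxo3 ratios stayed within their intervals in 24 of 24. The count of genes called, 330, was 194 with cells thinned to 500 UMIs, 143 from thinned UMIs, 60 with the resting markers alone, 642 with at least 50 UMIs, 874 with no minimum, 97 at 2-fold and 459 by the plain ratio; without each set it was 301 to 325.

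Between groups of cells, a z score of at least 1 gave Foxp1 ratios over resting cells of -0.95 (S100a4 effector), -1.19 (Ccl5), -0.68 (TCR-stimulated) and -0.33 (unassigned cells), and called Foxo1 lower in the Ccl5 group too (-0.43). Other random draws gave -0.92 for Foxp1 in S100a4 effector cells, -0.49 for Foxo1 in the Lrrc32 group, and 0.14 and -0.0041 for Foxo3 in unassigned cells. Calls of Foxp1 held in 14 of 14 alternatives in S100a4 effector, Ccl5 and cycling cells and in 12 of 14 in TCR-stimulated cells, lost with no minimum z (-0.38) and without set 4 (-0.39). The Foxo1 call in TCR-stimulated cells held in 8 of 14, lost with no minimum z (-0.27), an interferon gate of 6 UMIs (-0.40), draws 2 and 4 (-0.32 and -0.35) and without set 1 (-0.38) or 3 (-0.33). The causes were not tested. With no minimum z no cells were unassigned. No paired analysis was possible because no column carried a sample or a replicate number, so cKO and WT could not be paired; ratios within each barcode set stand in the report. With 531 and 238 UMIs, depth limits Foxp3 and Foxo3.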
